A study of Homo sapiens with 35 samples.

Results

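EOMES, TBXT, TBX3 and TBX6 are 4 genes of the T-box family of transcription factors, and they were followed here in human embryonic stem cells over 48 h of culture. The 4 genes were taken by symbol from the 58581 genes of the deposited count table, where each has 1 row. The row named T is brachyury, printed here under its present symbol TBXT. All cells were of the H9 line, an established human embryonic stem cell line. They were kept on Matrigel in E8 medium, were split with EDTA, and were plated as single cells to start the experiment. BA was E6 medium to which 40 ng/mL BMP4 and Activin A had been added, and it served to form mesendoderm, the shared precursor of mesoderm and endoderm. E6 alone was the control for spontaneous differentiation, and E8 was the control for pluripotency. Cells were sampled every 6 h up to 48 h in each medium, and t0 was the start. Poly(A) RNA was sequenced in 35 libraries that form 25 groups. Replicates, 3 per group, exist for BA at both 24 and 48 h, for each control medium at 48 h and for t0, and the other 20 groups have 1 library each. Every result therefore describes 1 cell line. Nothing in the labels tells if replicates came from separate cultures, so p-values measure only the spread between these libraries.

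T-box factors bind DNA through a shared domain, the T-box, and switch target genes on or off as cells choose their fate. In the mouse embryo Eomes is needed for definitive endoderm and for mesoderm to leave the primitive streak, and brachyury is needed for the streak, the notochord and the posterior body. Mouse Tbx6 directs cells to paraxial mesoderm, the source of the somites, and Tbx3 is best known as a repressor in the limb, the mammary gland and the heart. Nodal and Activin, BMP, WNT and FGF signals are the known inducers of the early streak genes.

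The libraries hold 11793453 to 37191969 counts. Levels are CPM, which are counts scaled to a common library total, here with TMM factors over the 35 libraries. Within each replicated group, replicate 1 stood apart from replicates 2 and 3. Over genes, the median chi-square between replicates 2 and 3 was 2.06 to 4.69 times that of sampling noise, and between replicate 1 and either of them 49.4 to 77.3 times. The 24 h and 48 h points of the 8-point courses below are replicate 1, and the other points are unnumbered libraries. These 25 libraries (with t0 replicate 1) hold 11793453 to 22115047 counts each, and the 10 libraries of replicates 2 and 3 hold 26097462 to 37191969. Values are therefore given by replicate where the T-box results turn on them. The 7 pluripotent markers checked summed to 2160 to 9060 CPM in BA at 48 h and 5510 to 6690 CPM at t0. In BA at 48 h, SOX2 had 3.51, 162 and 131 CPM in replicates 1, 2 and 3, POU5F1 had 291, 2680 and 1639 CPM, and NANOG had 7.98, 56.7 and 50.6 CPM. All 3 were lower in replicate 1, in which the T-box genes were higher. At t0 POU5F1 (450, 1465 and 1115 CPM) and NANOG (26.4, 59.9 and 61.9 CPM) were also lower in replicate 1, while SOX2 was not (224, 227 and 224 CPM). Their part in the T-box differences between replicates was not tested. In these bulk samples, fewer cells of a type and less RNA per cell cannot be told apart.

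All 4 genes lie on the minus strand of GRCh38 in GENCODE release 29, and no other gene overlaps any of them there. EOMES (ENSG00000163508) spans chr3:27715949-27722711 and TBXT (ENSG00000164458) spans chr6:166157656-166168700. TBX3 (ENSG00000135111) spans chr12:114670254-114684164 and TBX6 (ENSG00000149922) spans chr16:30085793-30091887. RefSeq promoter windows of GRCh38.p14, from 250 bases before to 50 bases after a start, were matched for 3 of the 4 genes (EOMES, TBXT and TBX6), TBXT with a pair of starts. The stretches before 1 TBXT start and before the TBX6 start are shown because both genes rose in BA, at different hours, and factors of the inducing signals are known to bind such letters. The TBXT stretch runs from position -250 to -27 at chr6:166167878-166168101, inside the gene's own span. The TBX6 stretch runs from -250 to -1 at chr16:30091925-30092174, in the 426 bases between TBX6 and its neighbour YPEL3. Both are read 5′ to 3′ on the gene's strand, with the found motifs in capitals.
TBXT: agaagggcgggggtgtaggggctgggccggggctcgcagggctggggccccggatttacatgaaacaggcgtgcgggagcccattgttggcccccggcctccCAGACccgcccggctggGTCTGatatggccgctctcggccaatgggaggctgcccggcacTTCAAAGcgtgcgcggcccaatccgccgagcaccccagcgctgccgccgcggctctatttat
TBX6: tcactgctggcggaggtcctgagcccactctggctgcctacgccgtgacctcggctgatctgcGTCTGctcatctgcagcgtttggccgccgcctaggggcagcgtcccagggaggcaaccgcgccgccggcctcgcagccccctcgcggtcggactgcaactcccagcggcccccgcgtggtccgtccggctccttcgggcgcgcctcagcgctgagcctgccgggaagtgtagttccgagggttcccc
The TBXT stretch holds the SMAD letters CAGAC at -148 and, as GTCTG on the other strand, at -131, and the TCF/LEF letters CTTTGAA, as TTCAAAG, at -88. The TBX6 stretch holds GTCTG at -187. The search covered both strands, and each motif is set beside its share of 35116 such windows. The SMAD letters CAGAC occur in 45.3% of them, and the TCF/LEF letters CTTTGAA in 4.43%. Of the other TCF/LEF forms, CTTTGAT occurs in 2.62%, CTTTGTT in 5.2% and CTTTGTA in 2.77%. The T-box letters AGGTGT occur in 11.4%, the FOXH1 letters AATNCACA in 3.31% and the TATA box letters TATAAA in 11.5%. TATAAA was found, as TTTATA, at -31 in the EOMES window and at -29 in the other TBXT window. None of the other letters searched was found in that TBXT window. The TBXT stretch printed is thus from the window that holds SMAD and TCF/LEF letters. The EOMES window also holds GTCTG 11 bases after its start. A match is a description of these letters, not a binding site, and the data hold no measurement of binding.

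In the BA course of replicate 1 and unnumbered libraries, EOMES and TBX3 were up first, TBXT followed, and TBX6 came last. EOMES had 7.38, 35.9, 177, 436, 752, 897, 1140 and 992 CPM at 6, 12, 18, 24, 30, 36, 42 and 48 h in BA. It climbed at each step to 42 h. TBXT had 0.211, 1.84, 18.4, 94.1, 274, 314, 346 and 88.8 CPM at the same hours. It had not moved at 6 h, was highest at 42 h and was about as low at 48 h as it had been at 24 h. TBX3 had 4.43, 12.2, 21.6, 63.4, 179, 381, 200 and 445 CPM, so that its library at 42 h was below both neighbours. TBX6 had 1, 0.593, 0.907, 1.19, 1.8, 10.3, 47.4 and 18.1 CPM. It stayed below 2 CPM to 30 h and then peaked at 42 h. The high values of EOMES, TBXT and TBX6 at 42 h rest on 1 library. That library was also away from its neighbours at 36 and 48 h in some other genes. ZFP42 had 7.35 CPM in it, against 79.5 and 77.9, and GATA3 had 41.3 CPM, against 154 and 131. Others lay between the neighbours, such as PPP4C with 113 CPM, against 95.6 and 121. The cause was not tested. Replicate 1 of t0 had 0.157 CPM of EOMES, 0.21 of TBXT, 0.314 of TBX3 and 0.419 of TBX6. The onset was taken as the earliest hour at which CPM + 1 was at least 4 times its t0 mean and stayed so at the next hour. It fell at 6 h for EOMES, 18 h for TBXT, 6 h for TBX3 and 36 h for TBX6. These hours rest on 1 library each and have no test, and other onset rules move each of them by 6 h. Replicates 2 and 3 have no BA library before 24 h, so no order of onset can be read from them. At 24 h in BA their CPM + 1 for TBX3 was 1.57 and 2.18 times that of t0, below the 4 times of the onset rule. For TBXT it was 6.55 and 6.95 times. The added 1 CPM lowers the TBX3 ratios, as these replicates had 20 and 37 counts of TBX3 at 24 h, against 1 and 0 at t0.

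**Figure D1:**
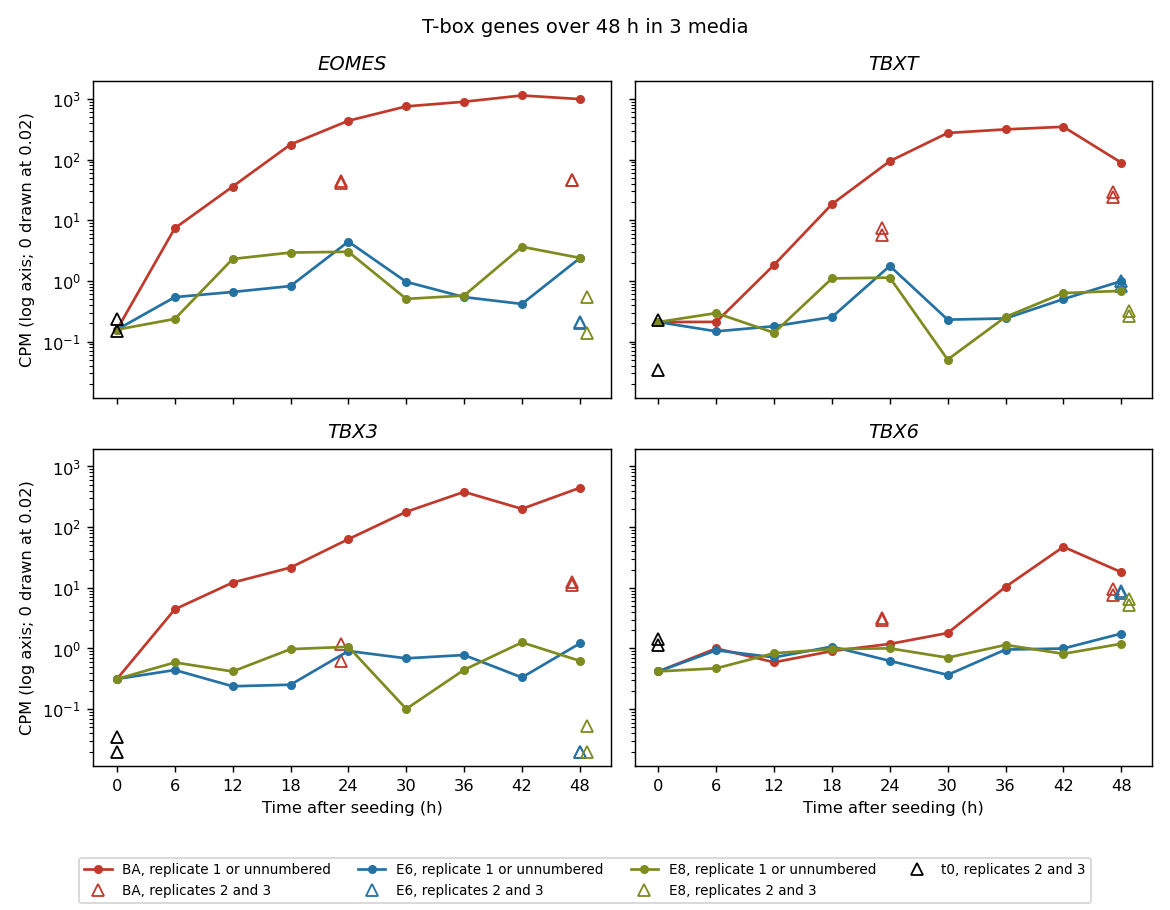
CPM of the 4 T-box genes (log axis, 0 drawn at 0.02) against hours after seeding. Lines join replicate 1 and unnumbered libraries of BA (red), E6 (blue) and E8 (green), each from t0 replicate 1, and open triangles are replicates 2 and 3, which lie below the BA line at 24 and 48 h except for TBX6 at 24 h.

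In the 16 E6 and E8 libraries of the same course the 4 genes stayed low. EOMES ranged from 0.236 to 4.43 CPM (median 0.893), TBXT from 0.0504 to 1.76 (0.274), TBX3 from 0.101 to 1.26 (0.608) and TBX6 from 0.367 to 1.76 (0.947). The highest EOMES and TBXT values were both in E6 at 24 h. There EOMES had 78 counts, or 4.43 CPM (95% Poisson interval 3.51 to 5.54), against 0.822 CPM (0.437 to 1.4) at 18 h and 0.964 CPM (0.597 to 1.47) at 30 h. TBXT had 31 counts there, or 1.76 CPM (1.2 to 2.5), against 0.253 and 0.23 CPM at 18 and 30 h. The intervals cover counting error only, and no replicate of E6 at 24 h was analysed.

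Averaged over the time course, all 4 genes had a higher fitted level in BA than in either control medium. Not every hour went that way. TBX6 had 0.593 CPM at 12 h in BA, against 0.715 in E6 and 0.836 in E8. At 18 h it had 0.907 CPM, against 1.07 and 0.976. TBXT at 6 h had 0.211 CPM in BA, against 0.147 in E6 and 0.295 in E8. The test below is of any difference between the courses, in level or in shape. An edgeR quasi-likelihood F-test of medium over a spline of time, with Benjamini-Hochberg adjustment over all genes, called 12.3% of 19902 genes for BA against E6 and 12.8% of 19723 for BA against E8, and it called 4 of the 4 T-box genes in both. Against E6 over 22 libraries, the fitted log2 difference averaged over the 8 time points was 7.71 for EOMES (adjusted p = 0.000159) and 6.11 for TBXT (adjusted p = 5.93e-05). It was 6.75 for TBX3 (adjusted p = 0.00349) and 1.91 for TBX6 (adjusted p = 0.0058). Against E8 it was 6.89, 5.98, 6.48 and 1.89 for EOMES, TBXT, TBX3 and TBX6 (edgeR adjusted p between 7.53e-05 and 0.00548). The pair of comparisons shares the BA libraries. Between E6 and E8 the test called 0.258% of genes and 0 of the 4, with an unadjusted p between 0.637 and 0.983, so none was under 0.05.

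The replicates set how firmly the single time points can be read. EOMES in BA had 992, 45.3 and 46.6 CPM in replicates 1, 2 and 3 at 48 h, and 436, 40.4 and 44.6 CPM at 24 h. The controls had 2.37, 0.204 and 0.208 CPM in E6 and 2.39, 0.549 and 0.14 CPM in E8, both at 48 h, and 0.157, 0.239 and 0.15 CPM at t0. Every BA value lies above every control value, while replicate 1 is far above the others in both BA groups. On average EOMES had 361 ± 546 CPM in BA at 48 h, 174 ± 227 in BA at 24 h, 0.926 ± 1.25 in E6 at 48 h, 1.03 ± 1.2 in E8 at 48 h and 0.182 ± 0.0494 at t0 (SD, n = 3 each). The ranges of the BA groups overlap each other, and those of E6, E8 and t0 also overlap.

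TBXT in BA had 88.8, 28.7 and 24.4 CPM in replicates 1, 2 and 3 at 48 h, and 94.1, 5.78 and 7.51 CPM at 24 h. The controls had 0.991, 0.818 and 1.01 CPM in E6 and 0.683, 0.262 and 0.316 CPM in E8, both at 48 h, and 0.21, 0.0341 and 0.225 CPM at t0. In BA, replicate 1 was as high at 24 h as at 48 h, and replicates 2 and 3 were higher at 48 h. The means were 47.3 ± 36 CPM in BA at 48 h, 35.8 ± 50.5 in BA at 24 h, 0.939 ± 0.105 in E6 at 48 h, 0.42 ± 0.229 in E8 at 48 h and 0.156 ± 0.106 at t0 (SD, n = 3 each). Only the BA groups overlap among neighbours in this order.

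TBX3 in BA had 445, 11.1 and 12.3 CPM in replicates 1, 2 and 3 at 48 h, and 63.4, 0.628 and 1.18 CPM at 24 h. The controls had 1.21, 0 and 0 CPM in E6 and 0.626, 0.0523 and 0 CPM in E8, both at 48 h, and 0.314, 0.0341 and 0 CPM at t0. A count of 0 allows up to 0.0876 and 0.089 CPM in the E6 libraries, 0.105 CPM in that of E8 and 0.112 CPM in that of t0 (3 counts per library, counting error only). All BA libraries at 48 h, but only replicate 1 of BA at 24 h, were above every control library. The means were 156 ± 250 CPM in BA at 48 h, 21.7 ± 36.1 in BA at 24 h, 0.404 ± 0.699 in E6 at 48 h, 0.226 ± 0.348 in E8 at 48 h and 0.116 ± 0.173 at t0 (SD, n = 3 each). Each group's range overlaps that of the next.

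TBX6 reached several CPM in the control media too, in replicates 2 and 3. TBX6 in BA had 18.1, 9.6 and 7.59 CPM in replicates 1, 2 and 3 at 48 h, and 1.19, 3.17 and 2.99 CPM at 24 h. The controls had 1.76, 8.35 and 8.81 CPM in E6 and 1.2, 6.51 and 5.23 CPM in E8, both at 48 h, and 0.419, 1.43 and 1.12 CPM at t0. In replicate 1 at 48 h BA was far above both controls, and in replicates 2 and 3 BA and E6 overlapped. The means were 11.8 ± 5.6 CPM in BA at 48 h, 6.31 ± 3.94 in E6 at 48 h, 4.31 ± 2.77 in E8 at 48 h, 2.45 ± 1.1 in BA at 24 h and 0.992 ± 0.519 at t0 (SD, n = 3 each). Each group's range overlaps that of the next.

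Against t0, EOMES and TBXT had risen in BA by 24 h, and TBX6 joined them at 48 h. One edgeR quasi-likelihood model over the 15 replicated libraries, with Benjamini-Hochberg adjustment over 21554 genes, called a gene at an adjusted p below 0.05. It called 2 of the 4 genes at 24 h, where it called 1.57% of all genes, and 3 of 4 at 48 h, where it called 6.37%. At 24 h the log2 change was 9.90 ± 2.06 for EOMES (SE, adjusted p = 0.0342) and 7.90 ± 1.30 for TBXT (adjusted p = 0.0108). It was 7.73 ± 2.72 for TBX3 (adjusted p = 0.278) and 1.35 ± 0.74 for TBX6 (adjusted p = 0.693). At 48 h it was 11.02 ± 2.13 for EOMES (adjusted p = 0.011), 8.33 ± 1.32 for TBXT (adjusted p = 0.00416) and 3.65 ± 0.79 for TBX6 (adjusted p = 0.019). TBX3 had the change with the widest error, 10.63 ± 2.96 (adjusted p = 0.0535). With the replicate number as a block in edgeR, TBX3 passed at both times (adjusted p = 1.88e-05 at 24 h and 5.07e-07 at 48 h), while the block called 8.95% and 28.5% of all genes. Within replicates 2 and 3 only, a setting added after seeing the data, 4 of 4 genes passed at 24 h and 4 of 4 at 48 h, with 20.7% and 46.7% of all genes called.
Some calls were lost when 1 library was left out. Such runs have fewer libraries, so a call lost without any library of a group does not point to 1 of them. The share of all genes called in these runs, here and below, is not given. At 24 h the EOMES call was lost without BA replicate 1 or 2 (edgeR adjusted p = 0.0897 and 0.0516) or any t0 library (0.143 to 0.203), and the TBXT call without any t0 library (0.0533 to 0.0754). At 48 h the EOMES call was lost without t0 replicate 2 or 3 (0.0672 and 0.075) and the TBX6 call without any t0 library (0.0599 to 0.0804).

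Between 24 and 48 h in BA the 4 genes did not pass the test, which called 0.455% of all genes. The log2 change from the edgeR fit was 1.12 ± 1.36 for EOMES (SE, adjusted p = 0.994) and 0.44 ± 0.92 for TBXT (adjusted p = 1). It was 2.91 ± 2.0 for TBX3 (adjusted p = 0.773) and 2.31 ± 0.75 for TBX6 (adjusted p = 0.242). TBX6 alone was under 0.05 before adjustment, in edgeR. With the replicate block, which called 10% of all genes, TBX3 was 3.34 higher at 48 h (edgeR adjusted p = 0.000143) and TBX6 2.64 higher (adjusted p = 0.0265). In DESeq2, which gave neither a p nor an adjusted p for EOMES or TBX3, TBX6 passed (adjusted p = 0.0369). Within replicates 2 and 3 only, which called 34.1% of 21822 genes, TBXT was 2.01 higher on the log2 scale (adjusted p = 6.56e-05), TBX3 3.71 higher (2.69e-05) and TBX6 1.49 higher (9.1e-05), and EOMES was 0.129 higher (0.634). Replicate by replicate, the ratio of CPM + 1 at 48 h to that at 24 h was 6.92, 7.46 and 6.12 for TBX3. With TBX3 at 0.628 and 1.18 CPM at 24 h in replicates 2 and 3, the added 1 CPM lowers their ratios. For TBXT it was 0.945, 4.39 and 2.98. For EOMES it was 2.27, 1.12 and 1.04, and for TBX6 8.74, 2.54 and 2.15.

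At 48 h EOMES and TBXT were higher in BA than in either control medium. The edgeR test called 2 of the 4 genes against E6, with 3.52% of all genes called, and 2 of 4 against E8, with 2.44% called. Against E6 the log2 difference was 8.80 ± 1.91 for EOMES (SE, adjusted p = 0.0251) and 5.69 ± 1.13 for TBXT (adjusted p = 0.0164). It was 8.89 ± 2.69 for TBX3 (adjusted p = 0.104) and 0.91 ± 0.71 for TBX6 (adjusted p = 0.682). Against E8 it was 8.62 ± 1.90 for EOMES (adjusted p = 0.0348), 6.91 ± 1.21 for TBXT (adjusted p = 0.011), 9.76 ± 2.82 for TBX3 (adjusted p = 0.101) and 1.47 ± 0.72 for TBX6 (adjusted p = 0.415). With the replicate block TBX3 passed against both (edgeR adjusted p = 5.35e-07 against E6 and 6.88e-07 against E8, with 22.1% and 17.6% of genes called). TBX6 had an adjusted p of 0.15 against E6 and 0.0592 against E8 with the block. Within replicates 2 and 3 only, TBX6 in BA was 0.0504 lower than in E6 on the log2 scale (difference -0.0504, edgeR adjusted p = 0.836) and 0.511 higher than in E8 (adjusted p = 0.0332), with 36.7% and 33.1% of genes called.
Against E6 the EOMES call was lost without BA replicate 1 (edgeR adjusted p = 0.0525) or E6 replicate 2 or 3 (0.135 and 0.137), and the TBXT call without any E6 library (0.0606 to 0.098). Against E8 the EOMES call was lost without BA replicate 1 (0.0702) or any E8 library (0.0741 to 0.168), and the TBXT call without E8 replicate 2 or 3 (0.0835 and 0.0706).

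**Figure D2:**
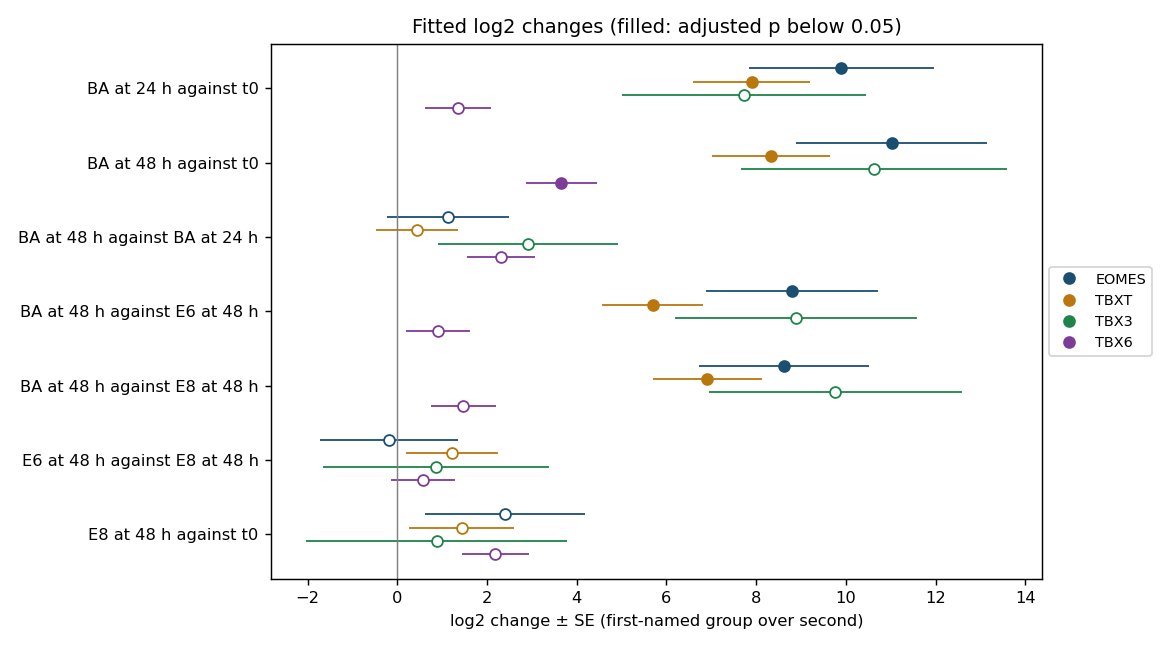
Fitted log2 change ± SE of each gene in 7 comparisons, the group named first over the group named second (edgeR, 3 libraries per group). Filled points had an adjusted p below 0.05, which EOMES and TBXT had in each comparison of BA with another medium or with t0, and TBX6 in BA at 48 h against t0.

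Between the control media no call was made. Between E6 and E8 at 48 h edgeR called 0.144% of genes and 0 of the 4, none with an unadjusted p under 0.05, and DESeq2 called neither of TBXT and TBX6. The log2 difference was 1.22 ± 1.03 for TBXT and 0.57 ± 0.71 for TBX6 (SE, edgeR adjusted p = 1 for both). Within replicates 2 and 3 only, TBXT was 1.68 higher in E6 (edgeR adjusted p = 0.0112) and TBX6 0.562 higher (adjusted p = 0.0348), with 18.4% of genes called. For TBXT this sets 28 and 34 counts in E6 against 10 and 9 counts in E8. In E8 at 48 h against t0, edgeR called 0.139% of genes and 0 of the 4, and TBX6 alone was under 0.05 before adjustment. TBX6 was 2.18 ± 0.75 higher in E8 on the log2 scale (adjusted p = 0.196). It passed with the replicate block (edgeR adjusted p = 0.0362, 25.6% of genes called), in DESeq2 (adjusted p = 0.0467) and within replicates 2 and 3 only (2.29 higher, edgeR adjusted p = 6.38e-06, 51.3% called).

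Like TBX6 in the control media, the gene next to it was higher in replicates 2 and 3 than in replicate 1. YPEL3, a gene linked to growth arrest, lies 426 bases before the TBX6 start on the same strand, and it was looked at after the TBX6 values were seen. YPEL3 in BA at 48 h had 9.13, 42.6 and 35.4 CPM in replicates 1, 2 and 3, against 7.43, 29.6 and 29.5 CPM in E6, 5.64, 40.2 and 37.2 CPM in E8 and 2.78, 12.2 and 12.2 CPM at t0. Replicates 2 and 3 were above replicate 1 in every group. The genes did not always move together: between E6 and E8 in replicates 2 and 3, CPM + 1 was 1.25 and 1.57 times as high in E6 for TBX6 and 0.744 and 0.799 times as high for YPEL3. The neighbour on the other side, PPP4C, with a gap of 415 bases, showed no such gap between replicates, with 121, 139 and 126 CPM in BA at 48 h, against 104, 117 and 113 CPM in E6. The ratio of TBX6 to YPEL3 CPM in BA at 48 h was 1.99, 0.225 and 0.215 in replicates 1, 2 and 3, against 0.237, 0.282 and 0.298 in E6, 0.212, 0.162 and 0.141 in E8 and 0.151, 0.117 and 0.092 at t0. In the BA course the ratio was 0.287 at 30 h, 1.51 at 36 h and 4.31 at 42 h, and it was above 1 only in the BA libraries at 36, 42 and 48 h of that course. The labels do not say whether the counting kept the strand or how reads past a gene's end were treated, and the part of YPEL3 in the TBX6 counts was not tested.

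**Figure D3:**
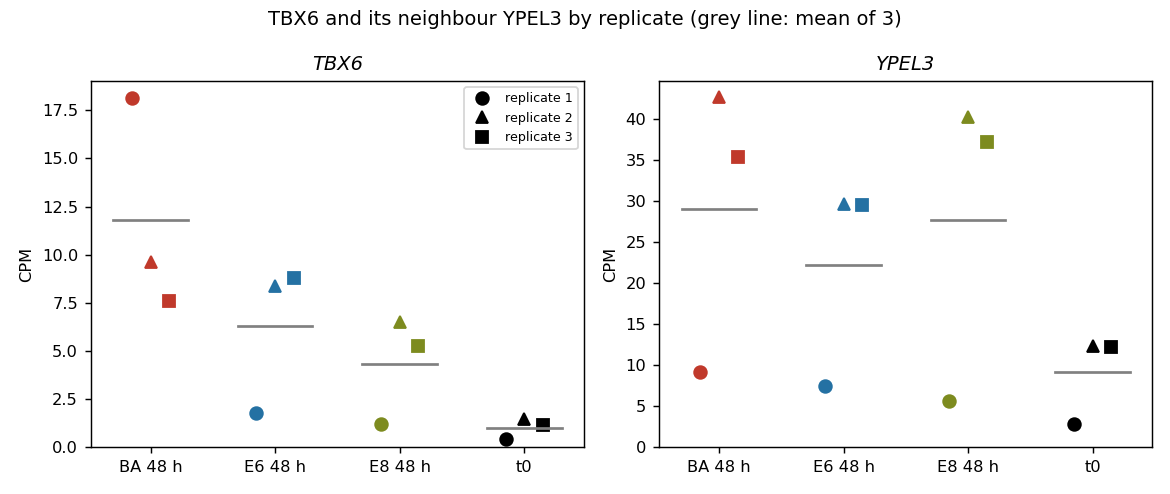
CPM of TBX6 (left) and of its neighbour YPEL3 (right) in the 3 replicates of BA, E6 and E8 at 48 h and of t0, with grey lines at the means. TBX6 is highest in BA replicate 1 (18.1 CPM), while YPEL3 is higher in replicates 2 and 3 than in replicate 1 of every group.

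Set on the hours of the BA course, replicates 2 and 3 at 48 h gave each gene the level of an earlier hour. Their EOMES levels at 24 and 48 h (40.4 to 46.6 CPM) lay between the course's 12 and 18 h (35.9 and 177 CPM), and their TBXT levels at 48 h lay between its 18 and 24 h (18.4 and 94.1 CPM). Their TBX3 levels at 48 h lay close to its 12 h (12.2 CPM), and their TBX6 levels at 48 h between its 30 and 36 h (1.8 and 10.3 CPM). At 24 h the TBX6 levels of replicates 2 and 3 (3.17 and 2.99 CPM) lay at a later hour instead, between 30 and 36 h. In E6 and E8 at 48 h the TBX6 levels of replicates 2 and 3 (5.23 to 8.81 CPM) also lay between those of BA at 30 and 36 h. A TBX6 level in this range is therefore not particular to BA. The placements set libraries that stood apart on 1 scale, and a shared shift in time was not tested.

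Per kilobase of exon, EOMES was the most abundant of the 4 in each BA library. It made up 56.8% to 81.6% of their summed CPM per kb in the 8 libraries of the course. At 42 h it had 311 CPM per kb and rank 38 of 36541 genes with a length, against 132 for TBXT, 33.6 for TBX3 and 15.1 for TBX6. The ratio of EOMES to TBXT per kb was 25.2 at 6 h, 14 at 12 h, 6.92 at 18 h, 3.33 at 24 h, 1.97 at 30 h, 2.05 at 36 h, 2.36 at 42 h and 8.03 at 48 h. In replicates 2 and 3 it was 1.13 and 1.37 at 48 h, against 5.03 and 4.27 at 24 h. The ratio was thus higher at 48 than at 24 h in replicate 1 and lower in replicates 2 and 3.

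**Figure D4:**
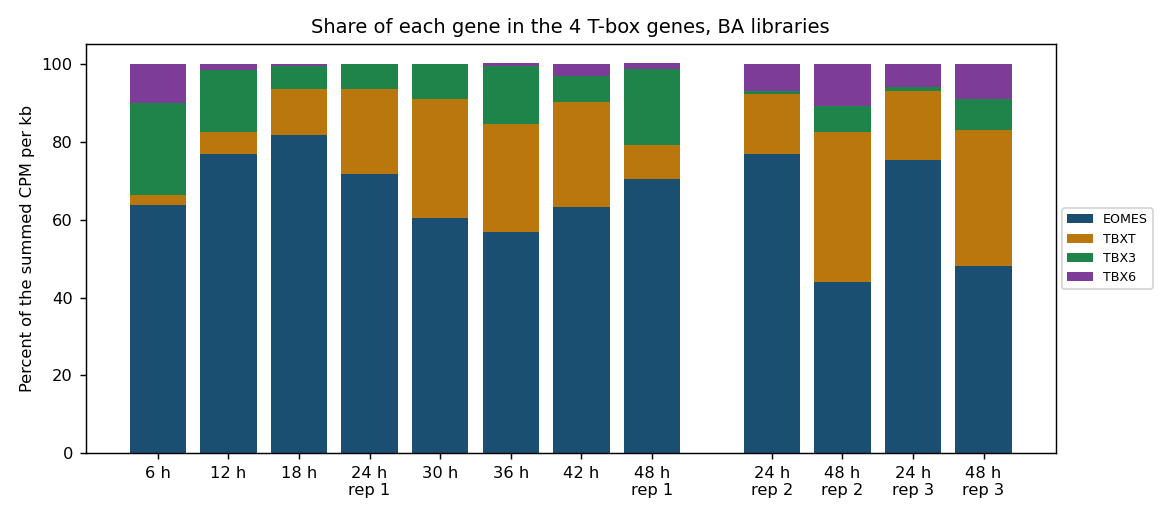
Share of each gene in the summed CPM per kb of the 4 T-box genes, one bar per BA library, with the course on the left and replicates 2 and 3 on the right. EOMES holds 56.8% to 81.6% in the course, and the share of TBXT is larger at 48 h than at 24 h in replicates 2 and 3 and smaller in replicate 1.

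The genes whose log2(CPM + 1) followed each T-box gene most closely over the 35 libraries were named by Pearson's r among 18380 genes, as a description with no test. For EOMES they were MIXL1 (r = 0.986), a homeobox gene of the primitive streak, GPRIN3 (0.975) and EPB41L3 (0.972). For TBXT they were EVX1 (0.974), a homeobox gene of the posterior streak, TCF7 (0.972), a WNT-pathway factor, and MIXL1 (0.963). For TBX3 they were GATA6 (0.985), an endoderm and heart factor, MIXL1 (0.976) and EVX1-AS (0.971), whose name marks it as antisense to EVX1, so their reads may not be told apart. For TBX6 they were C11orf45 (0.965), SNAI1 (0.939), a repressor of E-cadherin, and P3H2 (0.933), a collagen prolyl hydroxylase. In the 25 libraries without replicates 2 and 3, GPRIN3 ranked 18 and EPB41L3 26 for EOMES, and SNAI1 ranked 57 and P3H2 84 for TBX6, while MIXL1 stayed at rank 1 for EOMES. Among the members r was 0.955 for EOMES and TBXT, 0.945 for EOMES and TBX3 and 0.936 for TBXT and TBX3. TBX6 stood lower, at 0.509 with EOMES, 0.521 with TBX3 and 0.616 with TBXT, and at 0.721, 0.766 and 0.756 in the 25 libraries without replicates 2 and 3. All genes of a library share its depth and its replicate set.

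Genes of the signals that induce T-box genes were also higher in BA than in E6 at 48 h. Of 8 ligand genes, 5 were higher and none lower by edgeR, with a list median of 4.4 on the log2 scale, against 0.04 over all genes. The call rate over all genes was 2.03% for higher and 1.49% for lower. WNT3 had 122, 44.5 and 44.6 CPM in BA, against 1.43, 0.497 and 0.919 CPM in E6 (adjusted p = 0.000985). FGF8 had 7.34, 1.77 and 1.33 CPM in BA, against 0.165, 0.117 and 0.089 CPM in E6 (adjusted p = 0.012). NODAL, which activates the same receptors as Activin, had 2.17, 15.6 and 15.5 CPM in BA, against 0.495, 0.438 and 0.563 CPM in E6 (adjusted p = 0.00148). GDF3, a related ligand, had 0.639, 48.2 and 44.1 CPM in BA, against 1.43, 0.993 and 0.919 CPM in E6 (adjusted p = 0.0193), so its difference had the other sign in replicate 1. BMP4 was the fifth, with 216, 57.9 and 63.2 CPM in BA, against 5.83, 5.11 and 6.02 CPM in E6 (adjusted p = 0.00355). With the replicate block, where 12.4% of all genes were higher and 9.72% lower, 7 ligand genes were higher. Within replicates 2 and 3 only, where 18.8% were higher and 17.9% lower, 7 were higher too.

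Of 8 receptor genes, 1 was higher and 1 lower in BA than in E6. The BMP receptor gene BMPR1A had 126, 184 and 183 CPM in BA, against 69.4, 42.2 and 39.5 CPM in E6 (edgeR adjusted p = 0.012). FGFR1, an FGF receptor, had 491, 806 and 743 CPM in BA, against 1245, 1548 and 1649 CPM in E6 (adjusted p = 0.0056). With the block 2 receptors were higher and 1 lower, and within replicates 2 and 3 only, 3 were higher and 3 lower. Of 10 genes for signal transducers, 1 was higher, TCF7, with 89.7, 39.4 and 43 CPM in BA, against 12.6, 12.7 and 11.9 CPM in E6 (edgeR adjusted p = 0.00976). With the block 3 transducers were higher and 1 lower, and within replicates 2 and 3 only, 3 were higher and 3 lower. Of 7 inhibitors, 2 were higher and none lower. SMAD6, which blocks BMP signalling, had 454, 93.2 and 83.6 CPM in BA, against 6.38, 6.78 and 9.28 CPM in E6 (adjusted p = 0.0023), and SMAD7, which blocks TGF-beta signalling as well, had 124, 66.3 and 63.7 CPM in BA, against 17.6, 9.2 and 8.93 CPM in E6 (adjusted p = 0.00133). With the block 5 inhibitors were higher, and within replicates 2 and 3 only, 7.

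Of 7 genes linked to EOMES in the streak and endoderm, 3 were higher in BA than in E6 at 48 h and none lower, with a list median of 8.16 on the log2 scale. SOX17, an endoderm factor, had 174, 9.54 and 4.48 CPM in BA, against 0.055, 0 and 0 CPM in E6 (edgeR adjusted p = 0.0494). MIXL1 had 683, 34.2 and 39.2 CPM in BA, against 2.31, 0.35 and 0.296 CPM in E6 (adjusted p = 0.0383). MESP1, a factor of early mesoderm and heart, had 42.1, 4.87 and 3.65 CPM in BA, against 0.11, 0.497 and 0.296 CPM in E6 (adjusted p = 0.04). With the block, and also within replicates 2 and 3 only, 6 were higher. In BA at 24 h against t0, where EOMES itself had passed, none of the 7 passed (1.57% of all genes did), 3 were higher with the block (8.95% called), and 3 were higher and 1 lower within replicates 2 and 3 only (20.7% called).

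Of 11 genes linked to TBXT and TBX6, 9 had enough counts to be tested, and 4 were higher in BA than in E6 and none lower (list median 3.59). EVX1 had 130, 6.92 and 6.48 CPM in BA, against 0.055, 0 and 0 CPM in E6 (edgeR adjusted p = 0.0424). CDX1, a factor of posterior patterning, had 8.17, 1.53 and 2 CPM in BA, against 0, 0.0292 and 0.0593 CPM in E6 (adjusted p = 0.00871). FGF17, an FGF ligand, had 26.4, 3.65 and 3.81 CPM in BA, against 0.275, 0.409 and 0.386 CPM in E6 (adjusted p = 0.012), and MESP2, a somite factor under Tbx6 in the mouse, had 24.6, 3.83 and 2.38 CPM in BA, against 0.495, 0.964 and 1.13 CPM in E6 (adjusted p = 0.0436). With the block 5 were higher and 2 lower, and within replicates 2 and 3 only, 4 were higher and 2 lower of 8 tested. Of 6 definitive endoderm markers, 2 were higher in BA than in E6 and none lower. With the block, where 12.4% of all genes were higher and 9.72% lower, 3 were higher and none lower. Within replicates 2 and 3 only, 3 were higher and 2 lower. The 6 markers summed to 48.2 to 2980 CPM in BA and 9.06 to 14.6 CPM in E6, and the high end was mostly CER1, with 2653, 31.6 and 36 CPM in BA. Of 9 trophoblast and amnion markers 8 were tested, and 5 were higher and none lower, with sums of 154 to 514 CPM in BA and 9.91 to 25.4 CPM in E6 and with CGA at 0 in both. With the block 5 were higher and 1 lower, and within replicates 2 and 3 only, 6 were higher and 1 lower. KRT7 went the other way, with 0.192, 4.18 and 2.54 CPM in BA, against 3.74, 21.2 and 20.6 CPM in E6. So did VTCN1, with 0, 0.348 and 0.476 CPM in BA, against 1.21, 0.701 and 0.741 CPM in E6. Of 6 neuroectoderm markers, 2 were lower and none higher, with sums of 2.17 to 2.89 CPM in BA and 43.1 to 60.9 CPM in E6. With the block 4 of these 6 were lower, and within replicates 2 and 3 only, 4 of 5 tested. Of 5 fibroblast markers 3 were tested and 0 passed, with a median log2 difference of -0.45. With the block 1 of these 3 was higher, and within replicates 2 and 3 only, 1 was higher and 1 lower of 2 tested. The 5 markers summed to 447 to 599 CPM in BA and 258 to 421 CPM in E6, with COL1A2 at 533, 290 and 286 CPM in BA, against 185, 174 and 176 CPM in E6, and COL1A1 at 59.3, 172 and 161 CPM in BA, against 64.1, 236 and 245 CPM in E6. Their part in the T-box differences was not tested.

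**Figure D5:**
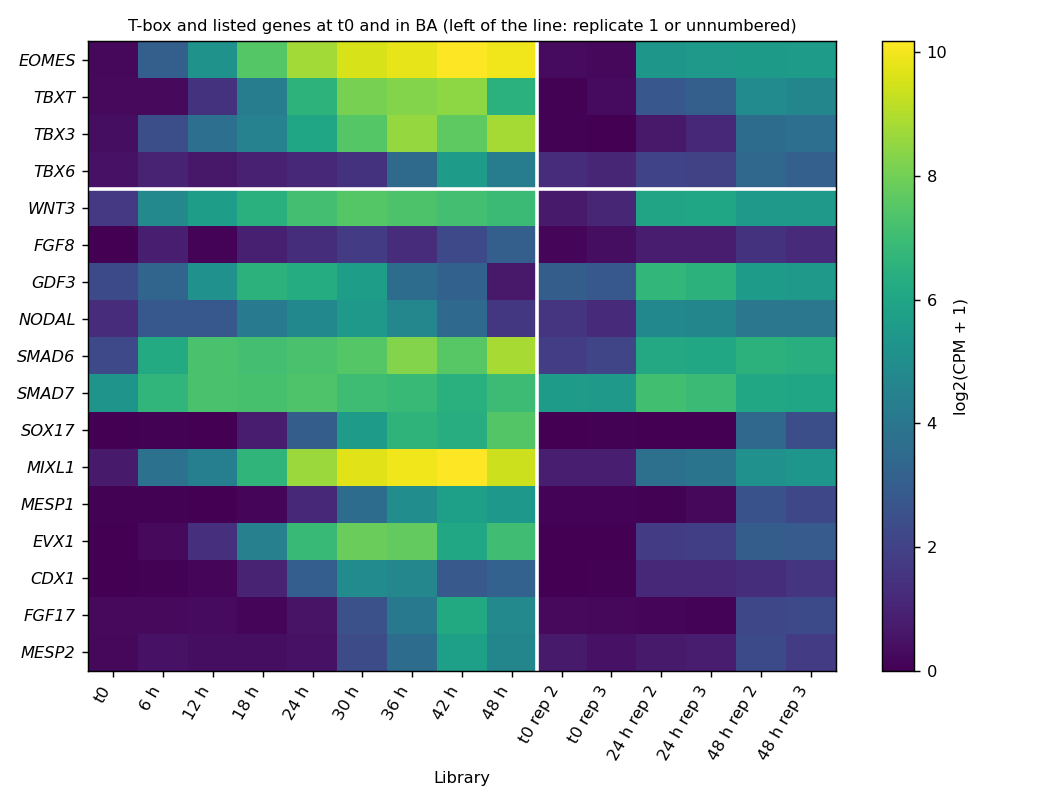
log2(CPM + 1) of the 4 T-box genes (above the white line) and of the called ligand, inhibitor and linked genes (below it) at t0 and in BA, one column per library, with replicate 1 and unnumbered libraries left of the vertical line. MIXL1 follows EOMES, WNT3 and SMAD6 are already higher than at t0 by 6 h, and GDF3 is low again at 48 h in replicate 1.

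The authors' deposited table gives a log2 fold change and an adjusted p for the same groups, and its header names no reference group. For EOMES the authors' deposited table lists 3.41 for 24 h of BA (adjusted p = 4.11e-08), 5.91 for 48 h of BA (7.03e-11), 1.43 for 48 h of E6 (0.189) and 1.33 for 48 h of E8 (0.198). For TBXT the authors' deposited table lists 2.5, 6.77, 2.22 and 0.92 for the same groups (adjusted p = 0.000245, 1.28e-21, 0.0017 and 1). For TBX3 the authors' deposited table lists 1.18, 3.54, 0.44 and 0.25 (adjusted p = 0.234, 0.00145, 1 and 1). For TBX6 the authors' deposited table lists 1.01, 3.25, 2.1 and 1.5 (adjusted p = 0.332, 9.46e-08, 0.00503 and 0.0698).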

How the data were processed

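The members and gene lists were chosen with earlier results of these data known. The labels' protocols state single-cell seeding, RNA extraction with a Nucleospin kit and libraries with the Illumina TruSeq mRNA kit. The deposited table holds whole read counts per gene under GENCODE 23 symbols, per the file headers, and the submitters' processing notes name hg38, featureCounts and DESeq2 without versions. The authors' second deposited table holds log2 fold changes, p-values and adjusted p-values.

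Counts were tested with edgeR 4.0.16 (R 4.3.3): TMM factors, the filterByExpr filter, a quasi-likelihood F-test of group over the 15 replicated libraries without a block, and Benjamini-Hochberg adjustment over the 21554 genes tested. Time courses used a natural spline of 3 degrees of freedom in each medium. A gene was called at an adjusted p below 0.05. The SE of a log2 change was worked back from the test, as the absolute change over the square root of its F. It is not a separate estimate. Alternatives were DESeq2 1.42.0, its size factors, no filter, a replicate block, only the 2 groups compared, each replicate left out and, added after seeing the data, replicates 2 and 3 only. The replicate numbers come from the labels. Same-numbered libraries deviated together from their group means in all 30 pairs (r = 0.625 to 0.917). With replicate 1 apart from replicates 2 and 3 in every group, such r can arise without pairing. Differently numbered libraries were not compared, so whether the numbers 2 and 3 pair libraries is not known. The block takes the numbers as pairs, and its value is given where it changes a member's call or a printed list count. Lengths and positions came from GENCODE 29, and promoter sequence from RefSeq on GRCh38.p14. Library totals of 11793453 to 37191969 counts leave genes under about 1 CPM resting on few reads. The named genes are the 4 members, at most 4 called genes per list with the largest log2 difference between BA and E6 at 48 h, and the 3 genes most correlated with each member. BMP4, YPEL3, PPP4C, MGA and the single cell-type markers given fall outside this rule and were chosen after their values were seen.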

Additional observations from a re-analysis of the deposited data

How the results depend on the processing

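In the time courses of BA against E6 and E8, 4 of 4 genes were called under each alternative run. The pairwise counts of called genes were less stable, and the number of all genes called moved with the setting too. With only the 2 groups compared, it fell from 339 to 114 in BA at 24 h against t0. It fell from 1373 to 351 in BA at 48 h against t0 and from 759 to 76 in BA against E6. Within replicates 2 and 3 only, 18.4% to 51.3% of all genes were called over the pairwise comparisons, against 0.139% to 6.37% in the main test. In BA at 24 h against t0 the 2 calls became 0 with only the libraries of those groups and 4 within replicates 2 and 3 only, and lay between 0 and 2 with 1 replicate left out. In BA at 48 h against t0 the 3 calls became 2 with only those groups (EOMES lost, adjusted p = 0.0568) and 4 both with the replicate block and within replicates 2 and 3, and lay between 1 and 3 with 1 replicate left out. In BA at 48 h against BA at 24 h the 0 calls became 2 with the replicate block and 3 within replicates 2 and 3. Against E6 at 48 h the 2 calls became 1 with only those groups, and lay between 0 and 2 with 1 replicate left out. Against E8 they became 0 with only those groups and 4 within replicates 2 and 3, and lay between 0 and 2 with 1 replicate left out. Between E6 and E8 the 0 calls became 2 within replicates 2 and 3, and in E8 at 48 h against t0 they became 1 with the block and 1 within replicates 2 and 3. The block ended no call. DESeq2 gave log2 changes but neither a p nor an adjusted p for EOMES and TBX3 in any pairwise comparison. It therefore has no count of the 4 and gives no second test of the EOMES calls.

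Directions turned only among differences that had not passed. In BA at 48 h against BA at 24 h, with 1 replicate left out, the log2 change lay between -1.94 and 3.17 for EOMES, -0.448 and 2.89 for TBXT and -0.911 and 7.51 for TBX3, and the negative ends came without BA replicate 1 at 48 h. TBX6 in BA against E6 was -0.0504 within replicates 2 and 3. Between E6 and E8, with 1 replicate left out, EOMES lay between -2.24 and 1.31 and TBX3 between -5.43 and 3.41. TBX3 was -3.11 within replicates 2 and 3, and TBXT was 0.0487 over time with a spline of 2 degrees of freedom. TBX3 in E8 against t0 lay between -1.63 and 3.18 with 1 replicate left out. The cause of these turns was not tested. Onset moved to 12 h for EOMES and TBX3 and to 42 h for TBX6 at 8 times the t0 level, to 12 h for TBXT at 2 times, and to 12 h for TBX3 with 2 CPM added.

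Over the single-gene log2 changes, 313 alternatives kept the main direction and side of the threshold, 21 gained a call and 31 lost it. Counts limit TBX3 most: 4 of the 15 replicated libraries hold 0 counts of it.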

Other observations

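Calls among the other T-box genes are given beside the share of all genes called, and these short lists were not tested as sets. Over the time course 1 of 12 tested was higher in BA than in E6, where 12.3% of all genes were called. Against E8 it was 2 of 11, where 12.8% were called. Of 13 further family members, 8 had enough counts to be tested, and none passed in BA against E6 at 48 h, where edgeR called 3.52% of all genes (2 passed with the replicate block, which called 22.1%). MGA, a MAX-binding repressor, had 106 ± 27.3 CPM in BA, 109 ± 33.8 CPM in E6, 102 ± 31 CPM in E8 at 48 h and 129 ± 24.7 CPM at t0 (SD, n = 3 each). In BA at 48 h against t0, where 6.37% of all genes were called, 1 of the 8 passed. This was TBX19, known from pituitary cells. It had 2.43, 3.13 and 3.78 CPM in BA at 48 h, against 0.838, 1.09 and 1.12 CPM at t0 (log2 change 1.67, edgeR adjusted p = 0.0141), with every BA value above every t0 value. At 48 h it had 1.27, 2.02 and 1.78 CPM in E6 and 1.37, 2.22 and 3.23 CPM in E8. These also lie above every t0 value, and E8 overlaps BA. In BA at 48 h against t0 with the block, 2 of the 8 were higher, where 28.5% of all genes were called. Within replicates 2 and 3 only it was 2 of 6 tested, where 46.7% were called.

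Some members were seen in the BA course but hardly in replicates 2 and 3, and these were picked after their values were seen. TBX20, a heart factor, had 0.977, 3.51 and 2.19 CPM at 30, 36 and 42 h in BA. At 48 h it had 11.4, 0.104 and 0.0318 CPM in replicates 1, 2 and 3 of BA, against 0, 0.0876 and 0.0593 CPM in E6. TBX2, the closest relative of TBX3, had 0.363 to 2.97 CPM in the BA course to 42 h. At 48 h it had 7.22, 0 and 0 CPM in BA, against 0.055, 0 and 0.0297 CPM in E6. Such a split between replicates was not limited to BA in other members. TBX5 had 4.82, 0 and 0.0374 CPM in replicates 1, 2 and 3 of t0. It had 3.19, 0.0523 and 0.0351 CPM in E8 at 48 h, and 12, 0.785 and 0.541 CPM in BA at 24 h. At t0 TBX15 had 4.66, 0.102 and 0.487 CPM, and TBX22 had 1.05, 0 and 0 CPM.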
